A study of Mus musculus with 2 samples.

Results

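The blood niche ligands and receptors described here are signals by which a fetal liver can hold and feed blood stem cells and other blood cells. They are the ligand genes Kitl, Cxcl12, Csf1, Angptl2, Thpo and Flt3l and the receptor genes Kit, Flt3 and Cxcr4. These 9 genes were taken by name from the 43346 mouse gene identifiers in the tables, 8 of them by gene identifier and 1, Flt3l, through its transcript. The data are 2 total RNA libraries that form 1 group, the livers of healthy B6NCrl mouse embryos at embryonic day 12.5, with both sexes mixed. Replicate 1 is a pool of 120 embryos and replicate 2 a pool of 88 embryos, each library was started from 10 ng of RNA, and no agent or allele is named in the labels. With 1 group there is no comparison between conditions and no p-value, and each pool is 1 library, so the ratios between pools have no replicate check.

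The fetal liver takes in blood stem cells from the circulation and expands them, while red cells, megakaryocytes and macrophages form beside the liver's own precursor cells. KIT ligand, made by stromal and endothelial cells, binds the receptor tyrosine kinase KIT on stem and progenitor cells and keeps them alive. CXCL12 attracts and retains cells that carry CXCR4, thrombopoietin acts on stem cells and megakaryocytes, FLT3 ligand through FLT3 on early lymphoid and myeloid progenitors, CSF1 through CSF1R on macrophages, and ANGPTL2 is a secreted protein reported to support stem cells in culture.

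An expected count is an estimated number of reads, and the totals were 37.6 M for replicate 1 and 34.7 M for replicate 2. TPM is a level corrected for transcript length and library size. All 5 erythroid, all 5 hepatoblast, all 5 endothelial and all 5 stellate and mesenchymal markers reached 1 TPM in both libraries, as the label of a fetal liver implies. Of the macrophage markers 4 of 5 reached it, Vsig4 being listed at 0 and 0.05 TPM, and of the stem and progenitor markers 5 of 5. Lymphoid markers reached it for 0 of 5 genes, with Cd3e at 0 in both libraries. Heart markers reached it for 4 of 5 genes, led by Myl7 at 19.5 and 18.9 TPM. Mesothelial markers reached it for 4 of 5 genes, and gut and pancreas markers for 1 of 5, Barx1 at 6.82 and 6.20 TPM. Every count of markers, here and below, is to be read beside the 29.6% of all mouse gene identifiers that reached 1 TPM. The 4 megakaryocyte markers summed to 821 TPM (replicate 1) and 718 TPM (replicate 2). In bulk tissue, fewer cells of a type and less RNA per cell cannot be told apart, so a level given here is a level in the whole organ.

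Of the 9 genes, 8 reached 1 TPM in both libraries, where 29.6% of all mouse gene identifiers did. Cxcl12 stood highest, followed by Kit, Kitl, Csf1, Angptl2, Flt3, Thpo, Flt3l and Cxcr4. Cxcl12, at 50.4 ± 0.0990 TPM, was 64.6-fold above Cxcr4, at 0.780 ± 0.0283 TPM (SD, n = 2). Flt3 and Thpo were the only neighbours in this order whose values overlapped between the libraries. The order takes Flt3l from its coding transcript Flt3l-201. All transcripts of the deposited gene that holds it had 4.94 and 4.25 TPM, a range that overlaps Angptl2 at 4.48 and 4.38 TPM. Among the 23500 mouse genes above 0 TPM in either library, whose median was 1.865 TPM, Cxcl12 lay at percentile 89.6, Kit at 78.2 and Cxcr4 at 41.6.

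**Figure D1:**
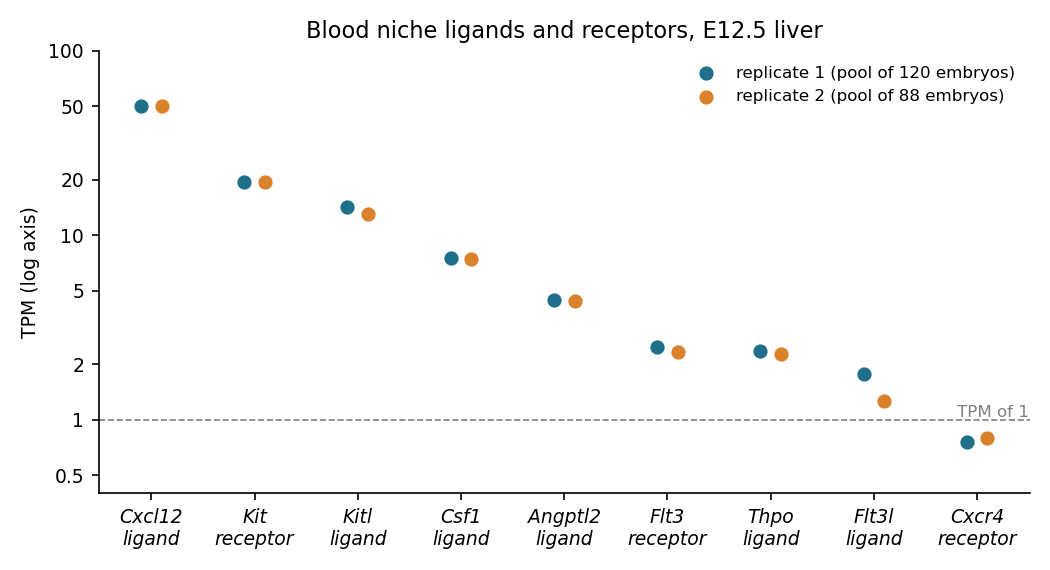
Level of each of the 9 genes in TPM on a log axis, with replicate 1 left of replicate 2 and no error bars. The genes run from Cxcl12 near 50 TPM to Cxcr4 below 1 TPM, the points of Flt3 and Thpo overlap in height, and Flt3l has the widest gap between the libraries.

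Kitl, the gene for KIT ligand (ENSMUSG00000019966, chr10:100015630-100100416 on the plus strand of mm10), stood at 14.2 TPM (replicate 1) and 13.1 TPM (replicate 2). Its expected counts were 1897 and 1783. The ratio of the pools in TPM was 1.08 (exact 95% interval 1.02 to 1.16, counting error only), the only one of the 9 TPM intervals without 1. Scaled by library size alone, without length, the ratio of counts was 0.981, so the direction depends on the scale. On that count scale Csf1 was at 1.18, and no interval was computed there, so which gene stands out also depends on the scale. The transcript mix sets the effective length of Kitl, which was 4239 bases in replicate 1 and 4667 bases in replicate 2.

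KIT ligand is made in a form that is cut from the cell surface and in a form that stays on it, and exon 6 of the gene, which encodes the main cleavage site, is present in the first and skipped in the second. Kitl-202, which has exon 6, took 70.7% of the gene's TPM in replicate 1 and 80.5% in replicate 2, or 75.6 ± 6.93% (SD, n = 2). Kitl-201, which skips it, took 25.2% and 15.3%, or 3.59 and 2.01 TPM. It rested on 131 and 68.1 expected counts, with a deposited posterior SD of the count of 23.1 and 23.2 reads. The model with exon 6 was the higher one in both libraries, by a wider margin in replicate 2. The exon holds 84 bases, or 28 codons, at chr10:100080857-100080940, and it is printed here with 30 bases of the exons on either side, since its presence is what sets the forms apart. Capitals mark exon 6, sequences are from the GENCODE M21 transcripts on mm10 and read 5′ to 3′, and the line for Kitl-201 has the same flanks joined.
Kitl-202: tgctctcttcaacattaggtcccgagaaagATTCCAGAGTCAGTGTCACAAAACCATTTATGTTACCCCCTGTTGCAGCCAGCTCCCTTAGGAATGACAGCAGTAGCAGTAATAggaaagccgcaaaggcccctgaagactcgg
Kitl-201: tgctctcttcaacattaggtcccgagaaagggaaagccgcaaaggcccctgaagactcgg

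The models also differ at their ends. The last exon is 4399 bases long in Kitl-202 and 381 bases in Kitl-201, so the whole transcripts are 5645 and 1260 bases. Of the 1161 windows of 100 bases in Kitl-201, 99 occur in no other listed Kitl transcript, and Kitl-202 has 4397 such windows of 5549, of which 183 touch exon 6. Few of the windows that belong to Kitl-202 alone thus touch exon 6, and whether skipping of exon 6 itself differed between the pools was not tested. Kitl-203, a model of 675 bases with 4 exons, took 4.01% and 4.12%.

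Kit, the receptor of KIT ligand (ENSMUSG00000005672, chr5:75574916-75656722, plus strand), had 19.5 TPM (replicate 1) and 19.4 TPM (replicate 2), from 3082 and 2813 expected counts. The ratio was 1.01 (0.956 to 1.06). Kit was the second highest of the 9 genes and nearly level between the pools. Kit also marks mast cells, germ cells and pigment cell precursors, and here 1 of 5 mast cell markers reached 1 TPM, Cpa3 at 3.65 and 3.10 TPM, and Mcpt4 was at 0 in both libraries. All 5 mast cell markers summed to 3.81 and 3.48 TPM. The 5 markers of germ cells and melanoblasts summed to 0.860 and 0.950 TPM, with 0 of 5 reaching 1 TPM.

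Kit RNA is spliced with or without 12 bases at the end of exon 9, which add 4 codons to the part of the receptor just outside the membrane, and the forms are known as GNNK plus and GNNK minus. Kit-204, without these bases, took 49.1% of Kit TPM in replicate 1 and 53.6% in replicate 2. Kit-201, with them, took 48.3% and 42.8%. The forms were nearly even in replicate 1, and Kit-204 was further ahead in replicate 2. The deposited posterior SD of the count was 210 reads for each model in replicate 1 and 219 reads in replicate 2, against 1518 and 1240 expected counts for Kit-201. The stretch is shown because it is what sets the proteins apart. Few bases tell the transcripts apart, since 107 of 5115 windows of 100 bases in Kit-201, and 134 of 5142 in Kit-204, occur in no other listed Kit transcript. Kit-204 also starts 39 bases further upstream. Capitals mark the 12 bases at chr5:75639147-75639158.
Kit-201: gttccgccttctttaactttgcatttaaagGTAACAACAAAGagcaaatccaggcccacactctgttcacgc
Kit-204: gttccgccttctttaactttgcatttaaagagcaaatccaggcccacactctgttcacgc

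Cxcl12, which encodes the chemokine that retains CXCR4-bearing stem cells (ENSMUSG00000061353, chr6:117168535-117181367, plus strand), had 50.3 TPM (replicate 1) and 50.5 TPM (replicate 2), from 3771 and 3519 expected counts. The ratio was 0.997 (0.952 to 1.04). The highest of the 9 genes was thus also the one whose TPM ratio lay nearest 1, although 8 of the 9 intervals held 1.

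Cxcl12 has 3 coding models that share the start of the protein and part at its end. Cxcl12-202, which matches the alpha form of 89 codons, took 56.5% of the gene's TPM in replicate 1 and 55.0% in replicate 2. Cxcl12-203, the beta form of 93 codons, took 32.7% and 35.4%. Cxcl12-201, the gamma form of 119 codons with the longest basic tail, took 3.02% and 2.66%, or 1.52 and 1.34 TPM. The order alpha, beta, gamma was the same in both libraries. A model with a retained intron, Cxcl12-204, took 7.73% and 6.94%. The coding ends are shown without the stop codon to make clear how short the difference is, the lower-case bases being the shared chr6:117173549-117173578 and the capitals what follows in each form.
Cxcl12-202: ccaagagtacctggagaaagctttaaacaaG
Cxcl12-203: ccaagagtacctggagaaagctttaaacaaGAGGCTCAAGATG
Cxcl12-201: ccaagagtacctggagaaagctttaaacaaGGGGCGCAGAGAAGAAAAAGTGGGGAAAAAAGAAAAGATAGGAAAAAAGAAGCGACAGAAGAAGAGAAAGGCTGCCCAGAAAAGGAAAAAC

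The basic tail of Cxcl12-201 lies at chr6:117176086-117176176, and the beta end at chr6:117178583-117178595. Of the windows of 100 bases, 39 of 1779 in Cxcl12-202, 98 of 3033 in Cxcl12-203 and 2596 of 5528 in Cxcl12-201 occur in no other listed Cxcl12 transcript, so few bases belong to the alpha or the beta model alone. The deposited posterior SD of the count was 33.3 and 32.8 reads for Cxcl12-202, beside 1592 and 1437 expected counts. For Cxcl12-203 it was 15.6 and 15.7 reads, beside 1573 and 1580 expected counts.

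Cxcr4, the receptor of CXCL12 on blood cells (ENSMUSG00000045382, chr1:128588199-128592293, minus strand), had 0.760 TPM (replicate 1) and 0.800 TPM (replicate 2). As deposited, this was the only one of the 9 genes under 1 TPM, but with TPM rescaled without spike-ins, tRNA entries and globin genes, which raises every level, Cxcr4 was over 1 TPM in both libraries. It rested on 41 and 40 expected counts, above a floor of 3 reads, which is 0.0559 and 0.0604 TPM at its effective length. The ratio of 0.950 had an interval of 0.599 to 1.51, so a difference between the pools of less than about that size could not have been seen at this depth. Cxcr4-201 took all of the gene's TPM in both libraries, although the authors' percent from posterior mean TPM gave it 90.6% and 77.7%.

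The atypical receptor Ackr3, which binds and removes CXCL12, had 7.87 TPM (replicate 1) and 9.05 TPM (replicate 2). Ackr3 RNA was 10.4 and 11.3 times that of Cxcr4. The ratio of Cxcl12 to Cxcr4 was 66.2 and 63.1, and that of Cxcl12 to Ackr3 was 6.39 and 5.57. Among receptors of this chemokine the scavenging one was the more abundant RNA in both libraries.

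Csf1, which encodes the growth factor of macrophages (ENSMUSG00000014599, chr3:107741048-107760469, minus strand), had 7.52 TPM (replicate 1) and 7.44 TPM (replicate 2), a ratio of 1.01 (0.907 to 1.13). Its expected counts were 760 and 596, a ratio of 1.18 once scaled by library size. The level per length was thus even while the reads were not, since the effective length was 3211 bases in replicate 1 and 2748 bases in replicate 2.

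CSF1 is made as a secreted glycoprotein or proteoglycan and as a form on the cell surface, and the choice rests on exon 6, which is long in the first and short in the second. Csf1-202, with the short exon 6, took 40.6% of Csf1 TPM in replicate 1 and 47.9% in replicate 2. Csf1-201, with the long one, took 42.8% and 18.7%, and Csf1-203, with the long one and another last exon, took 10.4% and 24.2%. Of Kitl, Kit, Cxcl12 and Csf1, this gene had the largest difference in a transcript share between the pools, that of Csf1-201. Which model led in replicate 1 is unsure, since the authors' percent from posterior mean TPM was 38.1% for Csf1-201 and 39.5% for Csf1-202 there. Csf1-201 and Csf1-203 together took 53.2% and 42.9%, or 48.1 ± 7.25% (SD, n = 2). A retained-intron model that also holds the long stretch of exon 6 is not in this sum. Csf1-205, a model of 6 exons, took 3.99% and 6.19%.

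The long exon 6 has 1016 bases and the short one 131, so that 885 bases, or 295 codons, at chr3:107748285-107749169 belong to the long form only. The junction with exon 5 is shown for both forms because a read across it tells them apart. Lower case is the end of exon 5 at chr3:107750311-107750340 and capitals are the first 30 bases of exon 6, read on the minus strand.
Csf1-202: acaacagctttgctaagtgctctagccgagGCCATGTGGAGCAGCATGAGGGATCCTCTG
Csf1-201: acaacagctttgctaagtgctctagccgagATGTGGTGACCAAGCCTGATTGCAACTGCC

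Csf1-202 has 0 of 2959 windows of 100 bases that occur in no other listed Csf1 transcript, Csf1-201 has 227 of 4077 and Csf1-203 has 246 of 1998. The split between Csf1-201 and Csf1-203, which share the long exon 6, rests on their ends, and the posterior SD of the count was 45.1 and 44.6 reads for Csf1-201, beside 413 and 165 expected counts. The CSF1 receptor gene Csf1r had 16.1 and 17.1 TPM, and Il34, the gene of its other ligand, had 1 read in replicate 1 and 0 in replicate 2. Csf1 was therefore the more abundant ligand RNA of that receptor.

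**Figure D2:**
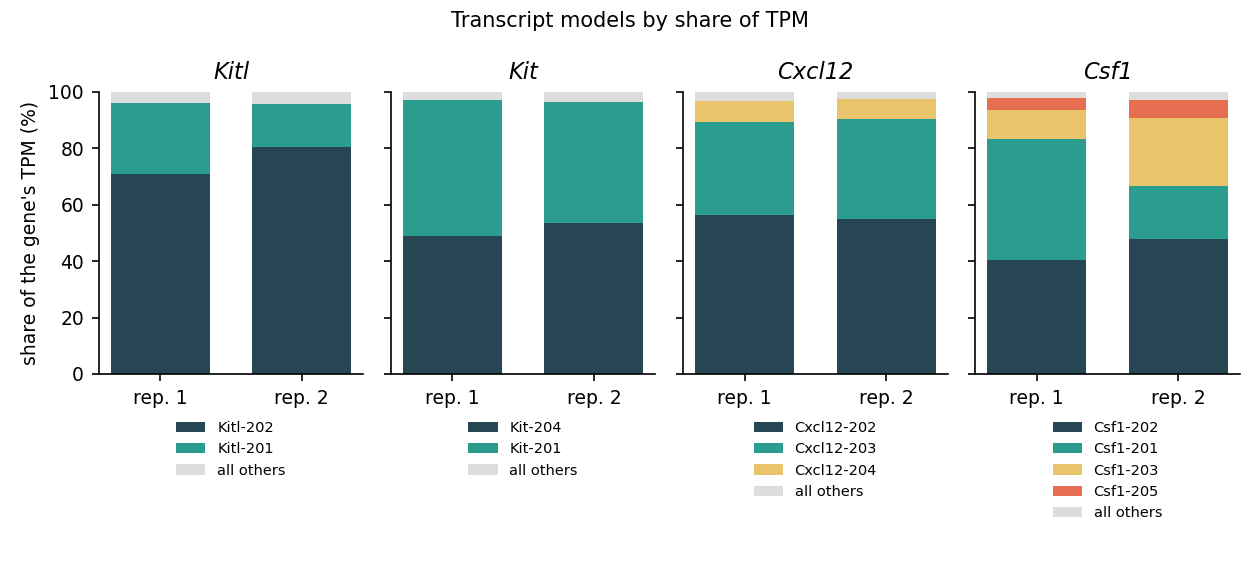
Share of each gene's TPM, in percent, taken by transcript models with at least 5% in either library, for Kitl, Kit, Cxcl12 and Csf1, with replicate 1 left of replicate 2 and other models in grey. The Cxcl12 bars are nearly alike, Kitl-201 is 25.2% in replicate 1 and 15.3% in replicate 2, and Csf1-201 is 42.8% and 18.7%.

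**Figure D3:**
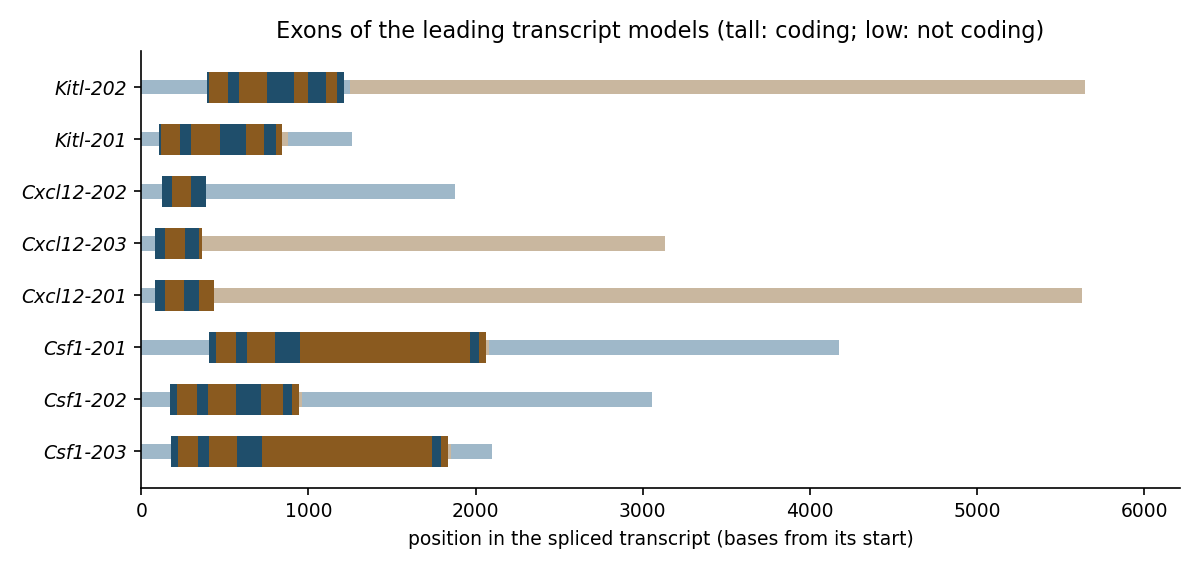
Exons of the leading models of Kitl, Cxcl12 and Csf1 along the spliced transcript, in bases from its start, with colours alternating between exons, tall boxes coding and low boxes not coding. The long last exon of Kitl-202 and the large exon 6 of Csf1-201 and Csf1-203 stand out.

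Angptl2, the gene of a secreted angiopoietin-like protein (ENSMUSG00000004105, chr2:33216069-33247717, plus strand), had 4.48 TPM (replicate 1) and 4.38 TPM (replicate 2), a ratio of 1.02 (0.891 to 1.17). Angptl2-201 took 92.9% and 90.4% of it, and Angptl2-204, a model of 714 bases, took 2.90% and 5.26%. The gene lies within Ralgps1 on the opposite strand, which had 0.990 and 1.23 TPM and whose exons do not overlap it. Pirb, the gene of a mouse receptor reported to bind ANGPTL2, had 0.780 and 0.810 TPM. It belongs to a family of similar genes, and how far reads were shared among them was not tested.

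Of the 6 angiopoietin-like genes listed, 4 reached 1 TPM, where 29.6% of all mouse gene identifiers did, with a median of 6.95 TPM. Angptl4, which encodes an inhibitor of lipoprotein lipase, had 18.0 and 14.8 TPM. Angptl8, which acts in the same control of plasma fat, had 12.3 and 11.6 TPM, and Angptl6 had 9.83 and 9.11 TPM. Angptl2 thus ranked below each of these in both libraries.

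Thpo, which encodes thrombopoietin (ENSMUSG00000022847, chr16:20724454-20734511, minus strand), had 2.37 TPM (replicate 1) and 2.28 TPM (replicate 2), a ratio of 1.04 (0.785 to 1.38) from 111 and 99 expected counts. Its exons overlap those of Chrd on the opposite strand, at 0.470 and 0.740 TPM, and the labels give no strandedness, so reads in the overlap could not be told apart with certainty. Asgr2 and Asgr1, which encode the liver receptor that takes up aged platelets and prompts thrombopoietin synthesis in the adult, had 4.20 and 3.74 TPM and 0.550 and 0.450 TPM. Thpo RNA was thus present at this stage while Asgr1 stayed under 1 TPM.

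Flt3, the receptor gene of early lymphoid and myeloid progenitors (ENSMUSG00000042817, chr5:147330741-147400489, minus strand), had 2.49 TPM (replicate 1) and 2.34 TPM (replicate 2), a ratio of 1.06 (0.894 to 1.27). Flt3-201 took 97.6% and 95.7%. Its level overlapped that of Thpo and lay far under that of Kit.

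Flt3l, the gene of its ligand, needs more care. The deposited gene that holds its coding transcript Flt3l-201 also holds 8 other transcripts, which are not in the annotation release used here. In that release the deposited identifier, ENSMUSG00000089989, belongs to a gene named Gm45713, which spans Flt3l and the ribosomal protein gene Rpl13a on the same strand, and Rpl13a itself was at 864 and 874 TPM. Flt3l-201 had 1.78 TPM (replicate 1) and 1.26 TPM (replicate 2), from 54.7 and 35.9 expected counts. The ratio of 1.41 was the widest of the 9, with an interval of 0.913 to 2.22. The deposited posterior SD of the Flt3l-201 count was 9.41 and 7.45 reads, an uncertainty that this interval does not cover. Flt3l-201 took 36.0% and 29.6% of the deposited gene's 4.94 and 4.25 TPM, and 5 of the 9 transcripts took at least 5% in either library. Another of these took 20.8% in replicate 1 and 32.9% in replicate 2, so Flt3l-201 was not the highest in replicate 2.

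The ratio of Flt3l-201 to Flt3 was 0.715 in replicate 1 and 0.538 in replicate 2. With all 9 transcripts of the deposited gene it was 1.98 and 1.82, so whether ligand or receptor RNA was higher turned on which transcripts were counted as Flt3l. How many reads of the other 8 transcripts came from Flt3l or Rpl13a was not tested.

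Set side by side, receptor RNA was higher than ligand RNA for Kit and Csf1r and lower for Cxcr4, in both libraries, while the direction for Flt3 turned on the transcripts counted. The ratio of Kitl to Kit was 0.728 and 0.675, or 0.701 ± 0.0372 (SD, n = 2), and that of Csf1 to Csf1r was 0.467 and 0.436. These are ratios of RNA levels in whole pooled liver samples and do not give amounts of protein.

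**Figure D4:**
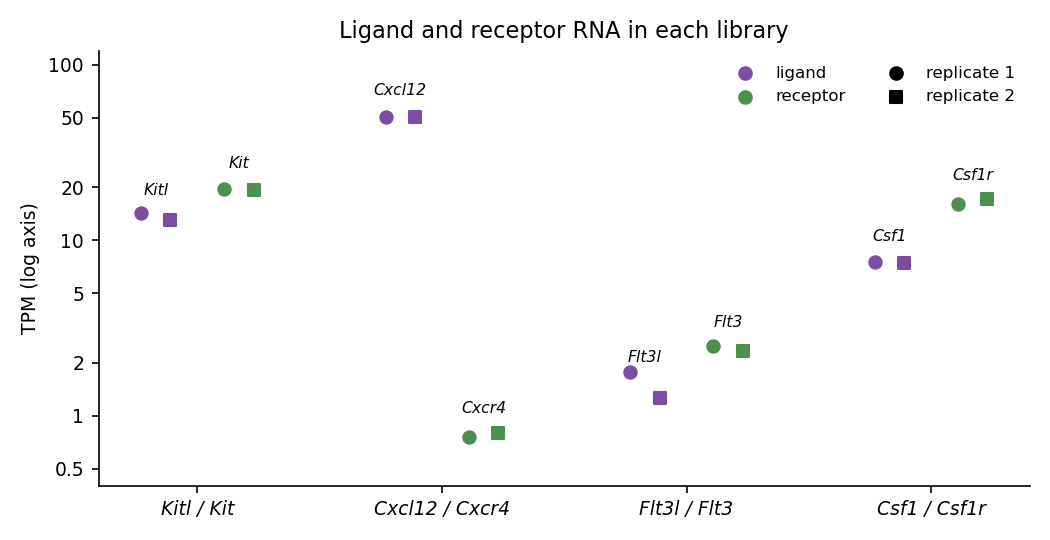
Ligand (left) and receptor (right) levels in TPM on a log axis for 4 pairs, circles for replicate 1 and squares for replicate 2. Cxcl12 lies far above Cxcr4, and the ligand lies below the receptor in the other pairs, with Flt3l taken from Flt3l-201.

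For the 7 genes with expected counts averaging 50 or more, the pools were compared in TPM. In 0 of these 7 did the higher pool exceed the lower one by 25% or more, after adding 0.1 TPM to both. Among the 13017 mouse genes with such counts 8.69% passed that limit, so 0 of 7 does not set these genes apart. The TPM ratios of the 7 ran from 0.997 to 1.08. With spike-in scaling they ran from 1.08 for Cxcl12 to 1.18 for Kitl. In counts scaled by library size, Csf1 was at 1.18.

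Genes that act downstream of these receptors were present. Each count of list genes at 1 TPM from here on is to be read beside the 29.6% of all mouse gene identifiers that reached it. All 15 adaptors and inhibitors of KIT and FLT3 signalling reached 1 TPM, with a median of 13.5 TPM. Grb2, an adaptor that links the receptors to RAS, had 68.0 and 77.2 TPM, Shc1, another adaptor, had 49.4 and 54.9 TPM, and Ptpn6, a phosphatase that restrains KIT, had 27.2 and 27.7 TPM. All 8 JAK and STAT genes reached it too, led by the kinase gene Jak1 at 51.9 and 53.1 TPM and the transcription factor genes Stat3 at 32.2 and 34.8 TPM and Stat5b at 29.2 and 27.3 TPM.

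The CXCR4 pathway list had all 9 genes at 1 TPM or more although Cxcr4 itself was not. The small GTPase genes Cdc42, at 282 and 274 TPM, and Rac1, at 148 and 149 TPM, and the G protein gene Gnai2, at 183 and 178 TPM, led it. These genes serve many receptors in nearly every cell. Of 4 genes for proteases that shed ligands, all reached 1 TPM, led by Adam10 at 88.1 and 93.0 TPM, Mmp14 at 31.2 in both and Adam17 at 19.7 and 21.2 TPM.

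Among the 5 class III receptor tyrosine kinases, all of which reached 1 TPM, Kit stood first and Flt3 last. Csf1r followed Kit, and Pdgfrb, a marker of stellate cells, had 7.37 and 8.61 TPM. Niche adhesion genes all reached 1 TPM, 10 of 10, led by the integrin gene Itgb1 at 113 and 113 TPM, the matrix gene Fn1 at 78.7 and 81.1 TPM and Vcam1, which anchors blood cells, at 40.5 and 43.2 TPM.

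Other cytokine and chemokine genes were mostly under 1 TPM, as were most mouse gene identifiers, of which 29.6% reached it. Of 12 other hematopoietic cytokine genes, 2 reached 1 TPM and the median was 0.0675 TPM. These were Epo, the red cell hormone gene, at 2.02 and 1.45 TPM and Il15, which supports natural killer cells, at 1.46 and 1.63 TPM, followed by Osm at 0.480 and 0.410 TPM. Il3, Il5 and Csf2 had 0 reads in both libraries, which at a floor of 3 reads allows up to 0.180 TPM for Il3 in replicate 1 and 0.194 TPM in replicate 2.

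Of 16 CXC chemokine and receptor genes, 4 reached 1 TPM, near the share of 29.6% among all mouse gene identifiers, with a median of 0.473 TPM. Cxcl12 led, followed by Ackr3 and by Cxcl10, an interferon-induced chemokine gene, at 5.75 and 6.21 TPM, and Cxcl9 and Cxcl11 had 0 reads. Receptor genes of the other cytokines were more often present, 9 of 12, with a median of 2.79 TPM. They were led by the erythropoietin receptor gene Epor at 124 and 119 TPM, then Il11ra1 at 37.6 and 34.7 TPM and Lifr at 14.4 and 13.0 TPM.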

How the data were processed

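The authors deposited 1 table of genes and 1 of transcripts for each library, made on mm10 and GENCODE M4, per the file headers, with aligner and quantifier not given in the sources used here. Expected counts are the authors' estimated reads, not normalized, and the deposited posterior mean and SD of the count describe their uncertainty. The deposited TPM and FPKM values are scaled by effective length and depth over all entries, spike-ins and tRNA included. Each transcript's percent of its gene's TPM is a column the authors deposited, and shares were recomputed from transcript TPM. Confidence bounds of TPM, a deposited signal column, were not used.

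Spike-ins took 2.94% of counts in replicate 1 and 3.19% in replicate 2. Names, exon structures and sequences came from GENCODE M21 on the same assembly, matched by identifier without version (42462 of 43346 gene identifiers). Coordinates are 1-based. Deposited lengths differed from M21 for Kitl-202, Thpo-201, Thpo-202 and Csf1-203. Detection meant at least 1 TPM in both libraries. Ratios are replicate 1 over replicate 2, with exact 95% Clopper-Pearson intervals from rounded expected counts. Reads carry no molecular identifiers, so intervals and floors (3 reads) cover counting error only. Count ratios and their intervals were tested on simulated counts with a known library scale. The simulation did not vary effective length, which enters the TPM ratios. edgeR 4.0.16 and DESeq2 1.42.0 in R 4.3.3 gave alternative scalings only. The design planned no test, since there is 1 group.

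The members, the 12 gene lists and the 13 marker lists were chosen with earlier results of these data known. Genes named are the 9 members, their partners Csf1r, Ackr3, Il34 and Pirb, the 3 highest of every other list and list members at 0 in both libraries. A planned ligand and receptor pair and 2 list genes are not reported here. Named transcripts had at least 5% of a gene's TPM in either library. Kitl-203 and Cxcl12-201 fell under this and were named after their values were seen. So were Chrd, Ralgps1, Rpl13a, Vsig4, Myl7, Barx1 and Cpa3. Alternatives were other detection limits, pseudocounts, scalings, units, transcript sets and single libraries, and shares from posterior mean TPM were added after seeing the data.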

Additional observations from a re-analysis of the deposited data

How the results depend on the processing

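No paired analysis was possible because the libraries form 1 group. Detection gave 9 genes at 0.5 TPM or above 0 and 4 genes at 5 TPM, and 8 genes with FPKM or with either library alone. The count of genes at least 25% higher in one pool was 0 under every pseudocount and scaling run, and 1, Flt3l, without a filter on counts. Using all transcripts of its deposited gene, an alternative chosen after seeing the data, turned the ratio of Flt3l to Flt3 to 1.90. Expected counts without length moved the mean ratios to 0.625 for Kitl to Kit, 90.0 for Cxcl12 to Cxcr4, 0.170 for Flt3l to Flt3 and 0.305 for Csf1 to Csf1r, a change made by leaving out length. Cxcl12 to Cxcr4 was 59.9 from coding transcripts only and 57.4 with 0.1 TPM added. The share of Kitl-202 was 94.1% of counts, and that of Cxcl12-202 was 41.5% of counts and 60.2% of coding TPM. With single libraries the ranges were 0.675 to 0.728 for Kitl to Kit, 63.1 to 66.2 for Cxcl12 to Cxcr4, 0.538 to 0.715 for Flt3l to Flt3 and 0.436 to 0.467 for Csf1 to Csf1r. The shares ranged over 49.1% to 53.6% for Kit-204, 70.7% to 80.5% for Kitl-202, 55.0% to 56.5% for Cxcl12-202 and 40.6% to 47.9% for Csf1-202. Rescaling TPM without spike-ins, tRNA entries and the 11 globin genes multiplied every level by 1.44 in replicate 1 and 1.47 in replicate 2, which put Cxcr4 over 1 TPM. Depth limits Cxcr4 and Flt3l, with mean counts of 40.5 and 45.3. Other values compared were the levels of the 9 genes and the leading transcript shares of Cxcr4, Thpo, Flt3, Flt3l and Angptl2. Leading here means the highest mean share over the 2 libraries. Single libraries aside, 14 of these values moved by less than 1 SD between the libraries and 23 by more.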
